A study of Mus musculus with 18 samples.

Results

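The 32 genes described here carry glucose into cells and break it down. They code for glucose transporters (Slc2a1, Slc2a3), the 10 steps of glycolysis with their isozymes, the enzymes that set fructose 2,6-bisphosphate, the 2,3-bisphosphoglycerate enzyme of red cells, lactate dehydrogenase, lactate carriers and pyruvate dehydrogenase kinases. They were taken by symbol from the GENCODE M21 annotation, as 32 of the 46167 genes summed from the deposited tables, and all 32 passed the filter on low counts. The symbols matched 33 gene IDs, because Aldoa named 2, and the one with more reads was used. RNA came from hematopoietic progenitors of E14.5 fetal livers of CD-1 mice, enriched with a kit to which a CD71 antibody had been added. All cells were infected with an MSCV-PIG retrovirus encoding a short hairpin RNA and kept 48 hours in a medium with dexamethasone, erythropoietin and SCF. They were then collected (Day 0) or moved to differentiation medium with erythropoietin for 2 more days (Day 2). On each day there were 3 control libraries (the scrambled hairpins SCR-1 and SCR-2 and the luciferase hairpin LUC-1), 3 PCBP1 knockdown libraries and 3 PCBP2 knockdown libraries (hairpins 1, 3 and 4 against Pcbp1 or Pcbp2). The replicates of a knockdown were thus different hairpins, and no label says whether libraries came from separate litters or cultures, so each p-value measures the spread between these libraries only. A poly(C)-binding protein such as PCBP1 or PCBP2 binds RNA and acts in splicing, translation and mRNA stability.

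Glycolysis turns glucose into pyruvate in the cytosol and makes ATP without mitochondria, which makes it the energy source of mature red cells, since these lose their mitochondria. Red cells also divert an intermediate through bisphosphoglycerate mutase (Bpgm) to 2,3-bisphosphoglycerate, which lowers the oxygen affinity of hemoglobin. Most steps have several isozymes, and developing red cells use their own set, such as the red cell form of pyruvate kinase made from Pklr.

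Library totals ran from 26949544 to 53784444 estimated reads. CPM values here are estimated read counts scaled to a common library size with TMM factors, which sets the bulk of genes to no change. Globin transcripts took 0.302% to 0.486% of the reads at Day 0 and 24.7% to 33.5% at Day 2, so scaling by library totals lowered the median log2 change of all genes from Day 0 to Day 2 in the controls from -0.05 to -1.68. All 11 erythroid markers tested rose from Day 0 to Day 2 in the controls, from a summed 3310 to 3780 CPM to 364000 to 435000 CPM, and the progenitor markers summed to 553 to 566 CPM and then 26.5 to 36 CPM. Fewer cells of a type and less RNA per cell cannot be told apart in such bulk samples. The LUC-1 library lay apart from both scrambled controls at Day 2. The targeted genes were lower under their own hairpins, Pcbp1 by log2 -2.59 at Day 0 and -2.83 at Day 2 and Pcbp2 by -2.01 and -2.49.

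The 2 mutually exclusive exons of Pkm, the pyruvate kinase gene of progenitors and most tissues, are shown first, because the choice between them differed between knockdown and control libraries. Exon 9 gives the M1 enzyme and exon 10 the M2 enzyme, which is the form of dividing cells. Both exons have 167 bases on the plus strand of GRCm38, exon 9 at chr9:59675029-59675195 and exon 10 at chr9:59675568-59675734. Capitals mark the 64 bases that differ between them, and the other 103 bases are the same.
Pkm exon 9 (M1): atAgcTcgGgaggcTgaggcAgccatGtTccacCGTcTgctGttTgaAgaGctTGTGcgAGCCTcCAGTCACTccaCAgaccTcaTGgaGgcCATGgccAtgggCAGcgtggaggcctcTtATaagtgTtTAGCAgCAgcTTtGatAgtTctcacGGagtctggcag
Pkm exon 10 (M2): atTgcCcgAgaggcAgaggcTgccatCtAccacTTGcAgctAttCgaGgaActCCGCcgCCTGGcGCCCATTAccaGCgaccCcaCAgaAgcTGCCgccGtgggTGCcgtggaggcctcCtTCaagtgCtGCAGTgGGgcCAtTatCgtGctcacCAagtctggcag

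The first comparison was between days within each condition. In the controls 9 of the 32 genes rose and 19 fell from Day 0 to Day 2 (edgeR quasi-likelihood test, adjusted p under 0.05 over 17500 genes), where 40.5% of all tested genes rose and 42.4% fell. The median log2 change of the 32 was -1.42, against -0.05 over all genes. In the PCBP1 knockdown 10 rose and 19 fell (40.3% and 41.7% of all genes), with a median of -1.35. In the PCBP2 knockdown 9 rose and 20 fell (41% and 42.2% of all genes), with a median of -1.89. With library totals in place of TMM, 4 rose and 25 fell among the controls. Under PCBP1 knockdown that scaling gave 4 and 26, and under PCBP2 knockdown 5 and 25. Bpgm, Slc2a1, Pfkfb2 and Pdk2 rose under both scalings in every condition, and every gene that fell under TMM also fell with library totals.

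**Figure D1:**
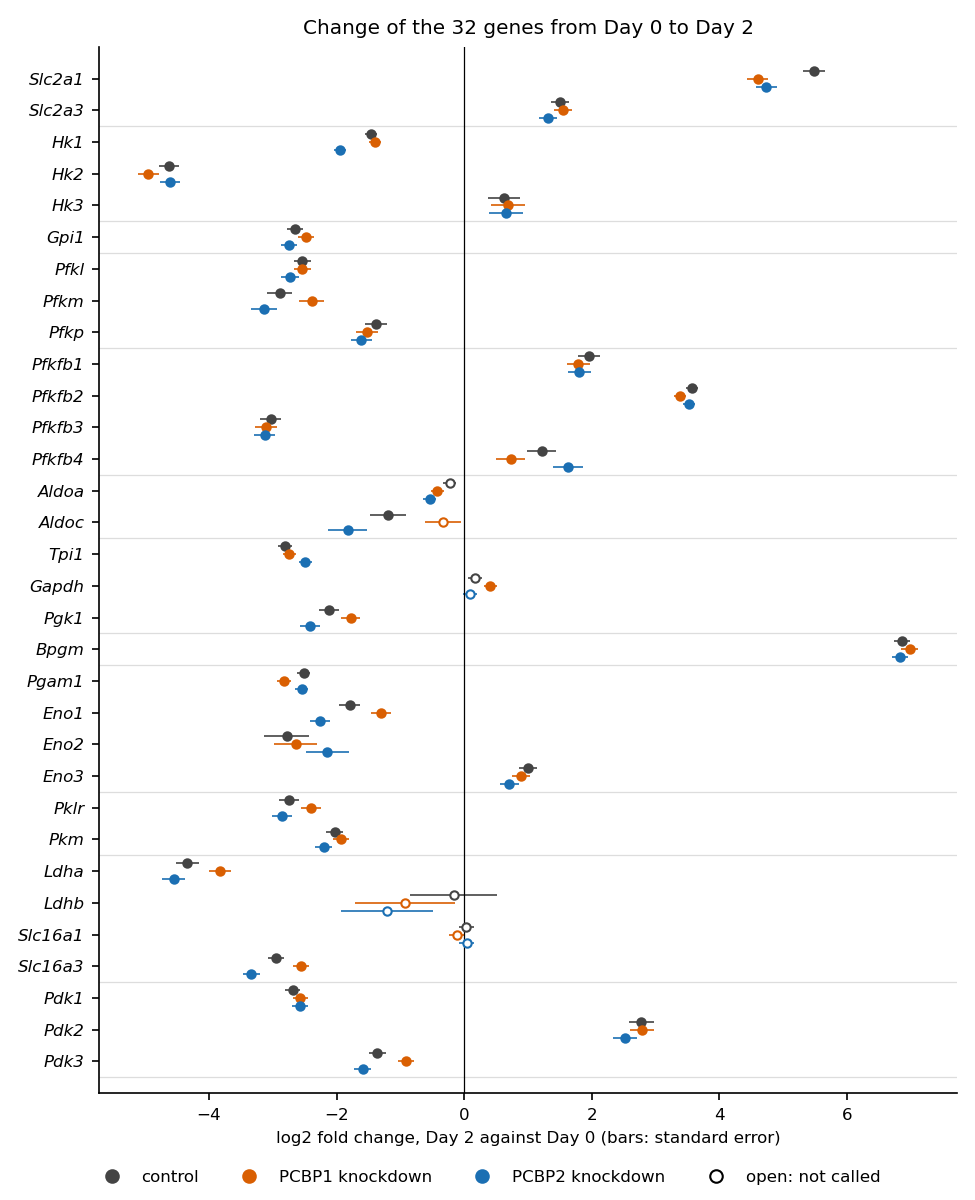
Fitted log2 fold change from Day 0 to Day 2 (horizontal axis) of the 32 genes, ordered by step, in the control, PCBP1 knockdown and PCBP2 knockdown libraries; bars are standard errors and open circles were not called. Bpgm and Slc2a1 stand at the right, at 6.87 and 5.49 in the controls, and Hk2 and Ldha at the left, at -4.62 and -4.34.

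Slc2a1 codes for the glucose transporter GLUT1 (GRCm38 chr4:119108711-119137983, plus strand). At Day 0 its level was 143, 153 and 125 CPM in the controls (in the order named above, as throughout), 101, 108 and 120 CPM with PCBP1 hairpins 1, 3 and 4, and 158, 142 and 147 CPM with the same numbers against Pcbp2. By Day 2 it was 5250, 5650 and 7990 CPM in the controls, 2630, 3070 and 2290 CPM with the PCBP1 hairpins and 4610, 3510 and 3800 CPM with the PCBP2 hairpins. Every Day 2 library lay above every Day 0 library, and on each day all 3 PCBP1 libraries lay below all 3 controls. Slc2a1 rose by 5.49 log2 units in the controls (SE 0.17, edgeR quasi-likelihood adjusted p = 1.45e-17), by 4.60 in the PCBP1 knockdown and by 4.74 in the PCBP2 knockdown.

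Slc2a3, which codes for the transporter GLUT3, rose less, by 1.5 log2 units in the controls (SE 0.135), from 155, 174 and 159 CPM to 532, 408 and 444 CPM. With library totals its log2 value was -0.13, so its direction depends on the scaling. A share within a library does not. On the per-length scale (TPM, in which counts are divided by transcript length), Slc2a3 made up 51.2%, 51.5% and 54.5% of the Slc2a1 and Slc2a3 transcripts in the Day 0 controls and 7.65%, 6.1% and 4.23% in the Day 2 controls. Over all conditions the share fell by 44.7 percentage points (exact permutation test within conditions, two-sided, p = 0.00025, the smallest that 8000 arrangements allow; adjusted p = 0.0005 over 8 shares).

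Hexokinase, which traps glucose as glucose 6-phosphate, came almost wholly from Hk1, the red cell isozyme. Hk1 made up 96.3%, 96.5% and 96.2% of hexokinase TPM in the Day 0 controls and 98.9%, 98.9% and 99.1% at Day 2. Its own level nevertheless fell, from 1070, 1060 and 886 CPM to 330, 364 and 396 CPM in the controls (log2 -1.47, SE 0.10). Hk2, the isozyme of growing cells (chr6:82725025-82774454, minus strand), had 88.9, 80.3 and 75.6 CPM in the Day 0 controls, 89.8, 79.6 and 82.4 CPM with the PCBP1 hairpins and 92.9, 91.3 and 77.4 CPM with the PCBP2 hairpins. At Day 2 Hk2 was at 3.2, 3 and 3.78 CPM in the controls, 2.39, 3.06 and 2.68 CPM with the PCBP1 hairpins and 2.41, 3.84 and 4.37 CPM with the PCBP2 hairpins. The 2 days did not overlap and the 3 conditions overlapped on each day. Hk2 fell by 4.62 log2 units in the controls (SE 0.16, edgeR quasi-likelihood adjusted p = 7e-17), the largest fall among the 32. Its share of hexokinase fell by 3.18 percentage points over all conditions (exact permutation p = 0.00025, adjusted p = 0.0005). Hk3, a hexokinase of white blood cells, was between 0.761 and 2.13 CPM in all libraries and rose by 0.63 log2 units in the controls, but had -0.997 with library totals. The granulocyte markers summed to 953 to 1080 CPM in the Day 0 controls and 895 to 1290 CPM in the Day 2 controls. Single granulocyte genes moved in opposite directions, so this sum does not show an unchanged granulocyte content. Ctsg (log2 -6.23), Elane (-5.97) and Mpo (-4.69) fell, and Ltf (5.08), Camp (3.68) and Ngp (2.96) rose. The part of granulocytes in the Hk3 value was not tested.

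Gpi1, which interconverts glucose and fructose phosphates, fell by 2.65 log2 units in the controls. The 3 genes of phosphofructokinase, the main control point of glycolysis, all fell. Pfkl, the liver and red cell subunit, fell by 2.54 log2 units, Pfkm, the muscle and red cell subunit, by 2.89 and Pfkp, the platelet subunit, by 1.38. Because Pfkp fell least, its share of phosphofructokinase TPM was 38%, 37.3% and 33.2% in the Day 0 controls and 64.8%, 51.4% and 48.2% at Day 2. Over all conditions the share of Pfkp rose by 16.3 percentage points (exact permutation p = 0.0005, adjusted p = 0.000667). The megakaryocyte markers summed to 259 to 304 CPM in the Day 0 controls and 672 to 768 CPM in the Day 2 controls. Their part in the Pfkp share was not tested. Of the subunits assigned to red cells, Pfkm was at 20.8%, 20.5% and 25.4% and then 12%, 11.5% and 7.18% in the controls, without overlap. Pfkl was at 41.2%, 42.2% and 41.3% and then 23.3%, 37.2% and 44.6%, so its ranges overlapped.

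The 4 Pfkfb genes code for the enzymes that make and remove fructose 2,6-bisphosphate, an activator of phosphofructokinase. They moved apart. Pfkfb2 rose from 17.4, 15.7 and 14.6 CPM to a mean of 189 ± 17.4 (SD, n = 3) CPM in the controls (log2 3.57, SE 0.10, edgeR quasi-likelihood adjusted p = 1.64e-18). Pfkfb3, the form induced in dividing cells, fell from 29.1, 27.6 and 28.6 CPM to 4.42, 3.29 and 2.68 CPM (log2 -3.03, SE 0.17). Pfkfb1 rose by 1.96 and Pfkfb4 by 1.22 log2 units in the controls, but Pfkfb4 had -0.42 with library totals. Pfkfb2 made up 27.2% to 29.9% of the TPM of these genes in the Day 0 controls and 70.8% to 78.3% in the Day 2 controls, and Pfkfb3 27.5% to 28.5% and then 0.537% to 0.785%. These and the further shares of Pfkl, Pfkm, Hk1, Pdk1, Pdk2 and Bpgm were chosen after the data were seen and carry no adjusted p.

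**Figure D2:**
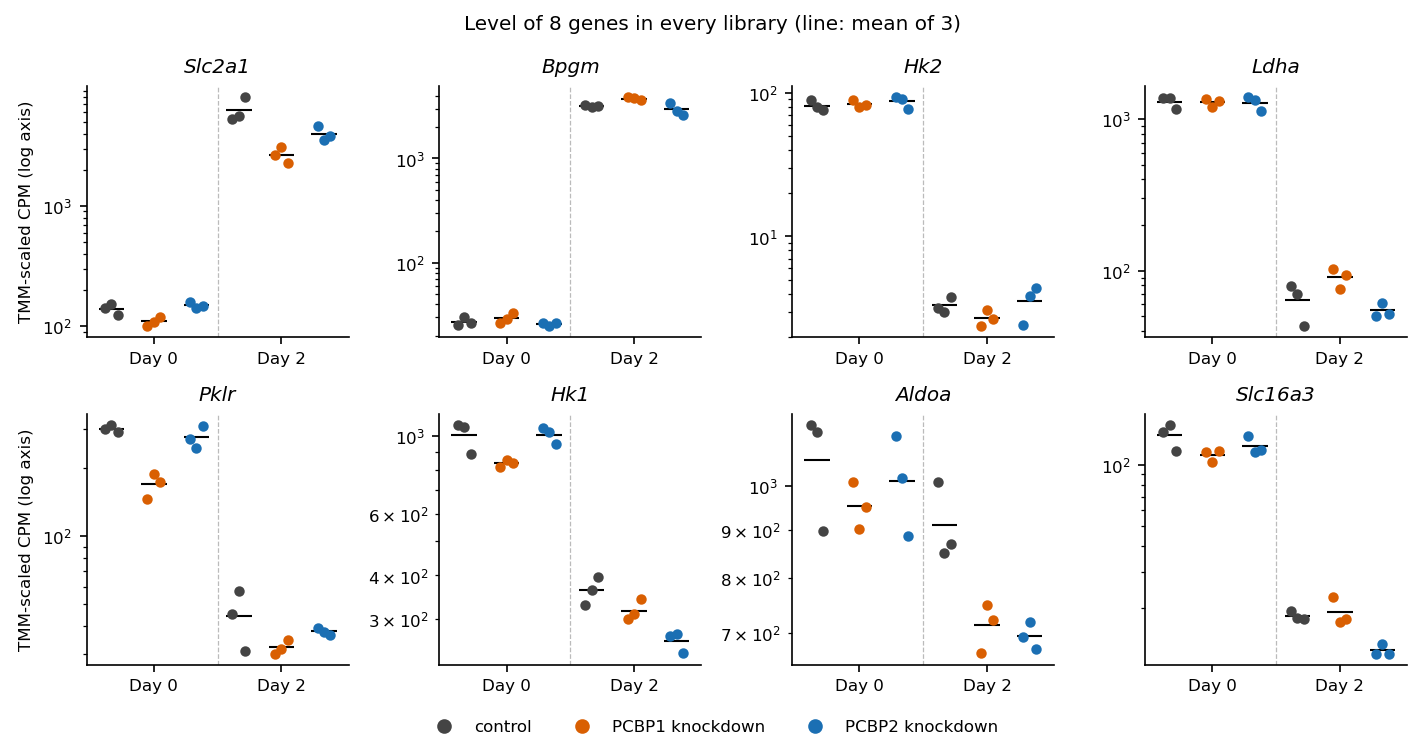
TMM-scaled CPM on a log axis for 8 genes in each library, by day and condition; the horizontal line is the mean of 3 libraries. Slc2a1 and Bpgm were at or above 2290 CPM in every Day 2 library, and the PCBP1 knockdown libraries of Day 2 were the lowest for Slc2a1.

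Aldolase and the triose steps held both called and uncalled genes. Aldoa, the aldolase of red cells and muscle, had 1160, 1140 and 897 CPM in Day 0 control libraries and 1010, 850 and 870 CPM in those of Day 2, and was not called (log2 -0.23, SE 0.105, edgeR quasi-likelihood adjusted p = 0.0542). It fell in the PCBP1 knockdown (-0.42) and in the PCBP2 knockdown (-0.54). Gapdh, which makes the NADH of glycolysis, was at 713, 682 and 616 CPM and then 853, 759 and 661 CPM in the controls and was not called (log2 0.18, SE 0.11), while in the PCBP1 knockdown it rose by 0.41. Tpi1, the triose isomerase, fell by 2.81 log2 units and Pgk1, the first ATP-forming step, by 2.12 in the controls. Aldoc, the brain aldolase, fell by 1.19 in the controls but was not called in the PCBP1 knockdown (-0.33, edgeR adjusted p = 0.27). Its share of aldolase TPM was small, 0.807% to 1.11% in the Day 0 controls and 0.395% to 0.529% in the Day 2 controls.

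Bpgm (chr6:34476207-34505613, plus strand) showed the largest rise of the 32 genes. Its level was 25.1, 30 and 26.4 CPM in the Day 0 controls, 26.2, 28.9 and 33.3 CPM with the PCBP1 hairpins and 26.2, 24.9 and 26.4 CPM with the PCBP2 hairpins. At Day 2 it reached 3230, 3090 and 3200 CPM in the controls, 3850, 3780 and 3600 CPM with the PCBP1 hairpins and 3400, 2850 and 2600 CPM with the PCBP2 hairpins. The days did not overlap, and at Day 2 the PCBP1 libraries lay above the controls. Bpgm rose by 6.87 log2 units in the controls (SE 0.13, edgeR quasi-likelihood adjusted p = 9.81e-21), by 6.99 in the PCBP1 knockdown and by 6.84 in the PCBP2 knockdown. Pgam1, the phosphoglycerate mutase of the main pathway, fell by 2.52 in the controls. Bpgm thus went from 5.14%, 5.63% and 5.36% of the Bpgm and Pgam1 TPM to 97.2%, 97.6% and 97.3%. Together Bpgm and Slc2a1 held 0.895% to 1.34% of the summed TPM of the 32 genes in the 9 Day 0 libraries and 50.1% to 64.2% in the 9 Day 2 libraries.

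Enolase makes phosphoenolpyruvate. Eno1, its widespread form, fell by 1.80 log2 units in the controls and Eno2, the neuronal form, by 2.78, while Eno3, the muscle form, rose by 1.00 from 6.97, 6.71 and 5.97 CPM to 11.9, 11.9 and 15.5 CPM. With library totals Eno3 had a log2 value of -0.64. Eno1b, annotated as a retrogene and counted apart, was at 555, 593 and 464 CPM and then 205, 191 and 144 CPM in the controls. How Salmon divides reads between Eno1 and Eno1b was not tested, so their separate levels are uncertain.

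Both pyruvate kinase genes fell. Pklr (chr3:89136142-89146784, plus strand) was at 298, 311 and 291 CPM in controls of Day 0, 147, 189 and 174 CPM with the PCBP1 hairpins and 270, 247 and 307 CPM with the PCBP2 hairpins. At Day 2 it was at 45.5, 57.1 and 31 CPM in the controls, 30.3, 31.6 and 34.9 CPM with the PCBP1 hairpins and 39.5, 37.6 and 36.7 CPM with the PCBP2 hairpins. At Day 0 the PCBP1 libraries lay below both other groups, and at Day 2 they overlapped the control LUC-1. Pklr fell by 2.75 log2 units in the controls (SE 0.155) and Pkm by 2.03 (SE 0.13), from 1230, 1330 and 1010 CPM to 281, 306 and 289 CPM. Pklr, summed over its transcripts, therefore did not gain on Pkm over these 2 days. Its share of pyruvate kinase TPM was 18.1%, 17.2% and 21% in the Day 0 controls and 12.7%, 13.8% and 8.4% in the Day 2 controls, a fall of 5.56 percentage points over all conditions (exact permutation p = 0.0005, adjusted p = 0.000667).

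Ldha, which turns pyruvate into lactate (chr7:46841475-46855627, plus strand), was at 1380, 1370 and 1160 CPM in controls of Day 0, 1350, 1210 and 1310 CPM with the PCBP1 hairpins and 1390, 1330 and 1130 CPM with the PCBP2 hairpins. At Day 2 it was at 79, 70.7 and 43.4 CPM in the controls, 103, 75.3 and 94.2 CPM with the PCBP1 hairpins and 50.6, 61.5 and 52.1 CPM with the PCBP2 hairpins. The days did not overlap. Ldha fell by 4.34 log2 units in the controls (SE 0.18, edgeR quasi-likelihood adjusted p = 2.06e-15). Ldhb, the lactate dehydrogenase subunit listed as the red cell isozyme, was at or below 0.704 CPM in every library and was listed at 0 in 2 of them, so its share of lactate dehydrogenase, at most 1.89%, rested on few reads. Slc16a3, the lactate exporter MCT4, fell from 146, 157 and 117 CPM to 19.3, 17.7 and 17.5 CPM in the controls (log2 -2.95, SE 0.13). Slc16a1, which codes for MCT1, was at 123, 127 and 134 CPM and then 119, 116 and 156 CPM in the controls and was not called (log2 0.03, SE 0.12). The share of Slc16a3 in the TPM of both carriers fell by 44.6 percentage points over all conditions (exact permutation p = 0.00025, adjusted p = 0.0005).

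The pyruvate dehydrogenase kinases limit the use of pyruvate in the mitochondria by switching off pyruvate dehydrogenase. Pdk1, the hypoxia-induced form, fell by 2.69 log2 units and Pdk3 by 1.36 in the controls, while Pdk2 rose by 2.78, from 3.44, 3.79 and 3.12 CPM to 20.9, 17.8 and 32.8 CPM. Pdk1 made up 71.9%, 72% and 67.7% of their summed TPM in the Day 0 controls and 30.8%, 29.9% and 25% in the Day 2 controls.

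**Figure D3:**
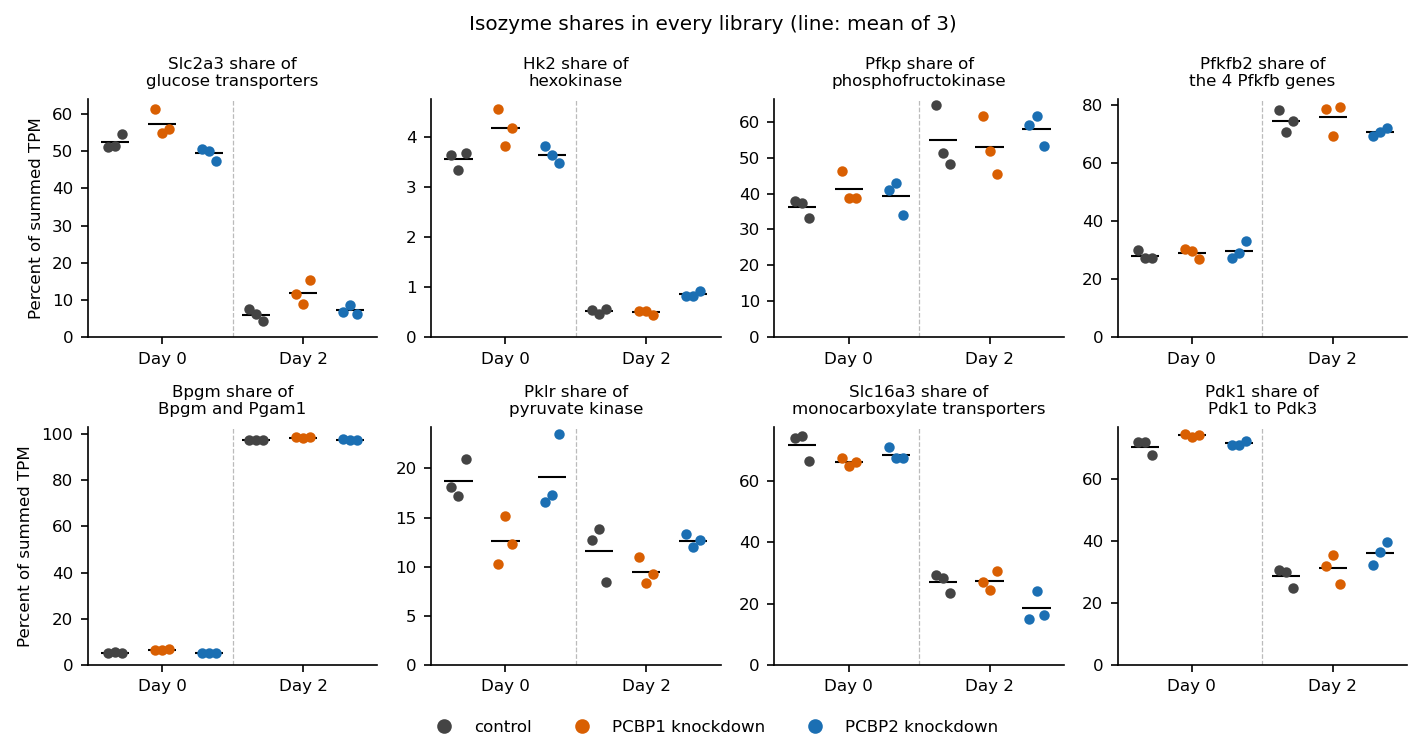
Share of 8 genes in the summed TPM of their enzyme or transporter family (percent, vertical axes from 0) in each library, by day and condition; the line is the mean of 3. Slc2a3, Hk2, Slc16a3 and Pdk1 had lower shares in every Day 2 library than in any Day 0 library, and Pfkfb2 and Bpgm higher ones.

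On the per-length scale the order of the genes turned over. Gapdh (2190, 1970 and 1890 TPM), Ldha (2080, 2030 and 1620 TPM) and Aldoa (1910, 1850 and 1380 TPM) led in the Day 0 controls, with overlapping ranges. In the Day 2 controls Slc2a1 (1180, 1140 and 1430 TPM) and Bpgm (1140, 1000 and 876 TPM) led, and their ranges met at 1140 TPM. Gapdh (742, 523 and 484 TPM) and Aldoa (477, 362 and 315 TPM) came next, and Slc2a3 was at 97.5, 74 and 63.2 TPM. TPM of other genes is lowered at Day 2 by the globin transcripts, so only the order within a library is compared here.

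The promoters of the 2 genes with the largest rise and the 2 with the largest fall between days in the controls are printed, as the ends of the range in the plot of changes between days. Each is the 250 bases before the RefSeq start (GRCm38.p6), 5′ to 3′ on the gene's strand, and 31 of the 32 genes had an entry. The intervals are chr6:34476106-34476355 (Bpgm, plus strand), chr4:119108495-119108744 (Slc2a1, plus strand), chr6:82774455-82774704 (Hk2, minus strand) and chr7:46845554-46845803 (Ldha, plus strand). Capitals mark ACGTG on either strand, the core of the hypoxia response element.
Bpgm: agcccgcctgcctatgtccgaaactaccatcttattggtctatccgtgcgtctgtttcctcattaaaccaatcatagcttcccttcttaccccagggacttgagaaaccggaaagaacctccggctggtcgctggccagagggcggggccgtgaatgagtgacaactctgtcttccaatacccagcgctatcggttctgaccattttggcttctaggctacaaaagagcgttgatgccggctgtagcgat
Slc2a1: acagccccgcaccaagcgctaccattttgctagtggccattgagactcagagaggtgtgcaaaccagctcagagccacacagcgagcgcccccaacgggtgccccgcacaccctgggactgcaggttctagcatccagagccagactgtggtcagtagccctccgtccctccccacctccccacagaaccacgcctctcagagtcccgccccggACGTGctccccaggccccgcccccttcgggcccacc
Hk2: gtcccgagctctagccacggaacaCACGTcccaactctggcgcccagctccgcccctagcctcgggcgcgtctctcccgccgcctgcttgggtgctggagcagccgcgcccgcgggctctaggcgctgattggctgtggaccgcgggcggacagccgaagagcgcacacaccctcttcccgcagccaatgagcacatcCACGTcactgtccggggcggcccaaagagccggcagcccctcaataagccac
Ldha: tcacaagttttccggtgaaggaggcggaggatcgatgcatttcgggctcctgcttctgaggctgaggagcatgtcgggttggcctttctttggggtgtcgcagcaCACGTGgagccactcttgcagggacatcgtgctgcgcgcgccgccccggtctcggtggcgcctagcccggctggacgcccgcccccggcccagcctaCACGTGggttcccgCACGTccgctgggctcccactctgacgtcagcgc
The window of Bpgm held no match, that of Slc2a1 held 1, that of Hk2 held 2 and that of Ldha held 5, where a palindromic CACGTG counts once on each strand. Of all 32851 promoter windows given, 16.6% held ACGTG. Of the genes that rose in the controls 3 of 8 had it, of those that fell 8 of 19, and of those not called 2 of 4. The GATA motifs AGATAA and TGATAA (both strands) were in 2 of 8, 3 of 19 and 1 of 4, against 16.6% of all windows. The KLF-type motif CCNCNCCC (both strands) was in 4 of 8, 15 of 19 and 3 of 4, against 45.9%.

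The second comparison asked how PCBP1 knockdown changed these genes in expanding progenitors. At Day 0, 1 of the 32 genes was lower than in controls and none was higher (0.834% and 0.0457% of all tested genes), and 6 of the 32 had an unadjusted p under 0.05. The 1 gene was Pklr, lower by 0.82 on the log2 scale (SE 0.145, edgeR quasi-likelihood adjusted p = 0.00798). DESeq2 also called 1 gene. The edgeR call of Pklr was lost without SCR-2 (adjusted p = 0.0536), without PCBP1 hairpin 1 (0.0992) and without hairpin 4 (0.0531). Its share of pyruvate kinase was 10.3%, 15.2% and 12.3% with the PCBP1 hairpins, below all 3 controls. Slc2a1 (log2 -0.36, edgeR adjusted p = 0.323) and Hk1 (-0.27, adjusted p = 0.229) were below the controls in every library and were not called, but both were called when the 9 Day 0 libraries were fitted alone (-0.35, edgeR adjusted p = 0.0225, and -0.26, adjusted p = 0.0385). That fit called 1074 of all genes, so the shares of all genes above hold for the main fit only.

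PCBP2 knockdown at Day 0 left no gene of the 32 called by edgeR in either direction (0% higher and 0.0229% lower among all genes). None had an unadjusted p under 0.05, and DESeq2 called 0. The log2 values ran from -0.27 (Pfkfb4) to 0.46 (Ldhb), with a median of -0.04. Compared directly, Pklr was higher in the PCBP2 than in the PCBP1 knockdown by 0.69 (edgeR quasi-likelihood adjusted p = 0.0431), the only call among the 32 (0.263% of all genes higher and 0.0171% lower). It was lost on leaving out any 1 of the 6 libraries compared, with adjusted p from 0.0551 to 0.338.

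At Day 2 PCBP1 knockdown lowered 5 of the 32 genes and raised 1, where 7.61% of all genes were lower and 5.51% higher. The largest difference was that of Slc2a1, lower by 1.24 on the log2 scale (SE 0.14, edgeR quasi-likelihood adjusted p = 1.63e-05). It was called in each of 13 alternatives, which include leaving out each library of the comparison. Slc2a1 was also the only gene of the 32 lower under both TMM and library totals. With library totals 8 genes were higher and 1 lower (Ldha was higher under both scalings), as the median of all genes moved from 0.02 to 0.25. The erythroid markers summed to 297000 to 318000 CPM in these PCBP1 libraries, below the controls, and 7 of 11 were lower (median log2 -0.38). Their part in the Slc2a1 difference was not tested. Fitted on the 9 Day 2 libraries alone, Slc2a1 was the 1 gene of the 32 called. That fit called 899 of all genes, fewer than the main fit.

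Pgam1 was lower at Day 2 in the PCBP1 knockdown, with 58.4, 75.3 and 59.5 CPM against 94.2, 80.8 and 91.7 CPM in the controls (log2 -0.47, SE 0.10, edgeR quasi-likelihood adjusted p = 0.00338). The groups did not overlap, but with library totals the value was -0.24 (edgeR adjusted p = 0.0989). Aldoa was at 666, 750 and 723 CPM, below all 3 controls (-0.35, edgeR adjusted p = 0.0315). Eno3 was at 8.46, 11.1 and 9.26 CPM, also below all 3 controls (-0.45, edgeR adjusted p = 0.046), and Pklr was again lower (-0.47, edgeR adjusted p = 0.0461). Ldha was higher (0.50, edgeR adjusted p = 0.0446), and the PCBP1 hairpin 3 library lay below the control SCR-1. The call of Ldha was lost without LUC-1, the control with the least Ldha (0.27, edgeR adjusted p = 0.253), and without SCR-2 or PCBP1 hairpin 1 or 4 (0.054 to 0.225). Those of Aldoa and Pklr were lost without SCR-1 (adjusted p 0.164 and 0.114), without SCR-2 (0.0549 and 0.377) and without each PCBP1 hairpin (0.0648 to 0.142 and 0.0756 to 0.18). That of Eno3 was lost without SCR-2 (0.0544), LUC-1 (0.193), hairpin 1 (0.175) and hairpin 4 (0.114).

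PCBP2 knockdown lowered 4 of the 32 genes at Day 2 and raised none, where 3.75% of all genes were lower and 0.949% higher. 10 of the 32 had an unadjusted p under 0.05. DESeq2 called 5 in all. Slc2a1 was lower by 0.67 on the log2 scale (SE 0.14, edgeR quasi-likelihood adjusted p = 0.0096), with all 3 libraries below the controls. Hk1 was at 270, 272 and 240 CPM against 330, 364 and 396 CPM in the controls (-0.48, SE 0.09, edgeR adjusted p = 0.00619). Slc16a3 was at 11.9, 13.2 and 11.9 CPM against 19.3, 17.7 and 17.5 CPM (-0.56, SE 0.13, edgeR adjusted p = 0.0189), and Aldoa at 694, 719 and 674 CPM (-0.39, edgeR adjusted p = 0.0392). None of these 4 overlapped the controls. The calls of Slc16a3 and Aldoa were lost without PCBP2 hairpin 1 (0.052 and 0.0704) or hairpin 4 (0.0691 and 0.0943), and that of Aldoa without SCR-1 (0.105). Without LUC-1, 8 of the 32 were lower, with Pfkm, Pklr, Ldha and Eno1 added. With library totals 1 of the 32 was higher and 1 lower, and only Slc2a1 was lower under both scalings (Hk1 had an edgeR adjusted p of 0.0721). When the 9 Day 2 libraries were fitted alone no gene of the 32 was called, and Slc2a1 and Hk1 each had an edgeR adjusted p of 0.0993. That fit called 30 of all genes, fewer than the main fit. The erythroid markers summed to 311000 to 363000 CPM, and 3 of 11 were lower; their part in these values was not tested.

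**Figure D4:**
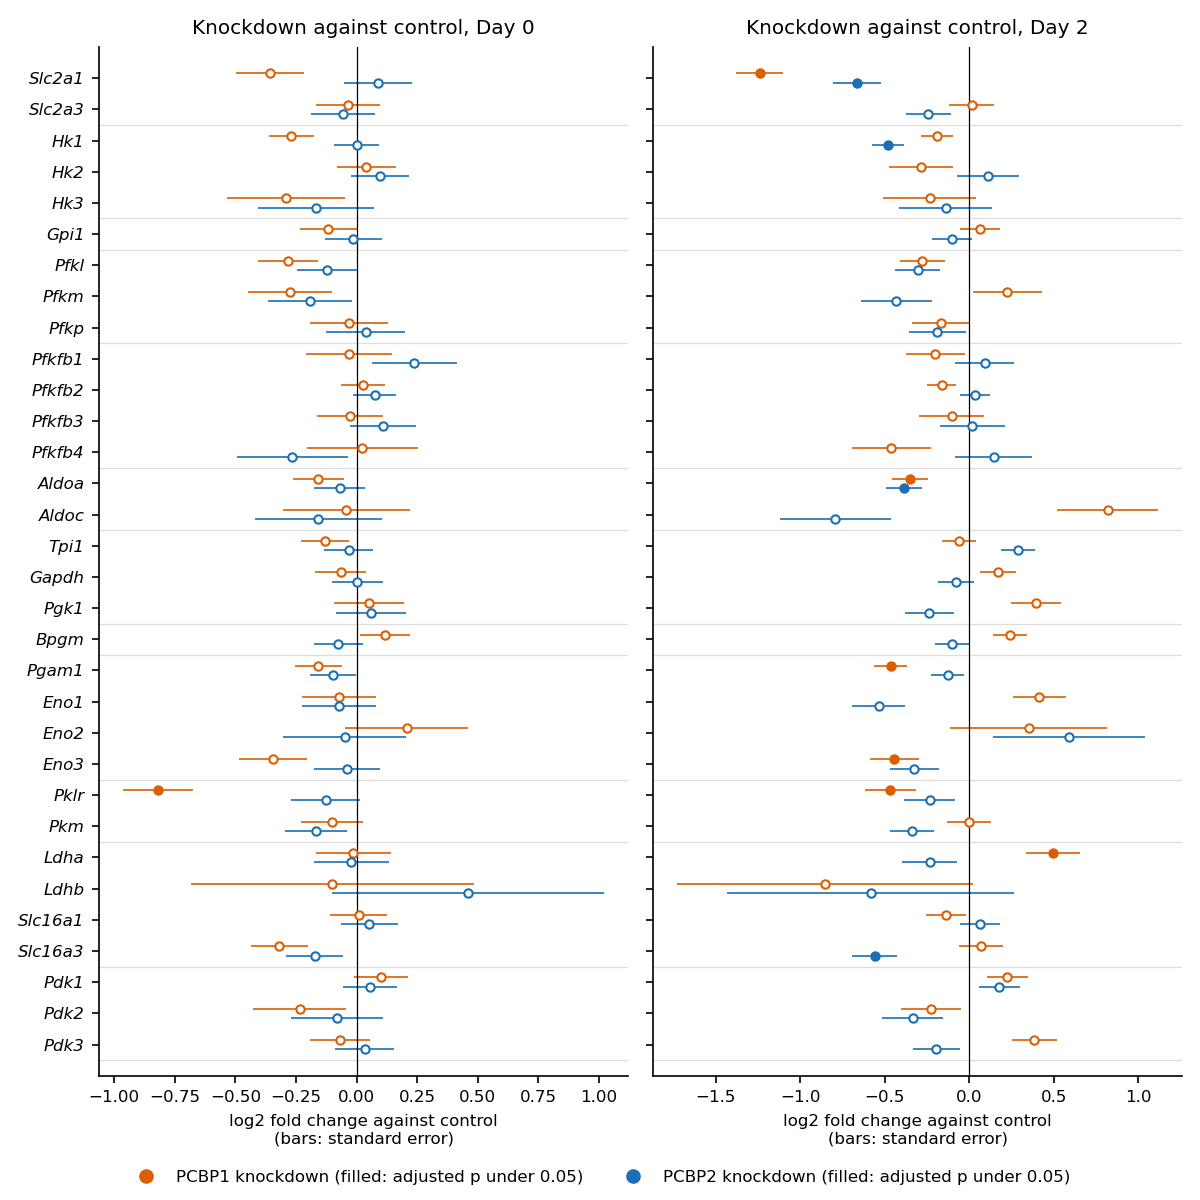
Fitted log2 difference of each knockdown from control (horizontal axes) for the 32 genes at Day 0 and Day 2; bars are standard errors and filled circles were called at an adjusted p under 0.05. Pklr in the PCBP1 knockdown is the single filled circle at Day 0, and Slc2a1 at -1.24 lies farthest left at Day 2.

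The 2 knockdowns were set against each other directly at Day 2, where PCBP2 libraries were higher than PCBP1 libraries for 3 of the 32 genes and lower for 8 (4.79% and 7.3% of all genes). With library totals 1 was higher, Slc2a1, and 8 were lower. Aldoc was at 3.81, 4.42 and 1.75 CPM with the PCBP2 hairpins and at 10.7, 9.92 and 9.78 CPM with the PCBP1 hairpins, with the controls at 7.72, 3.87 and 5.7 CPM, below the PCBP1 libraries and overlapping the PCBP2 libraries. The difference was -1.61 on the log2 scale (SE 0.32, edgeR quasi-likelihood adjusted p = 0.00305). Eno1 was at 153, 145 and 103 CPM against 268, 257 and 248 CPM (-0.95, SE 0.16, edgeR adjusted p = 0.000907), with a control mean of 194 ± 52.3 (SD, n = 3) CPM and controls that overlapped both groups. Eno1b differed likewise (-0.98, edgeR adjusted p = 0.000567). Aldoc, Eno1 and Slc16a3 (-0.63, edgeR adjusted p = 0.00497) were called in each of 14 alternatives. Ldha (-0.73), Pfkm (-0.66), Pgk1 (-0.63), Pdk3 (-0.58) and Bpgm (-0.34) were also lower. Slc2a1 (0.58), Tpi1 (0.35) and Pgam1 (0.34) were higher. Of these 8, all but Ldha were lost on leaving out at least 1 library: Slc2a1 without PCBP1 hairpin 4 (edgeR adjusted p = 0.0528) or PCBP2 hairpin 1 (0.0599), Pgk1 without PCBP1 hairpin 1 (0.0599), Pdk3 without PCBP2 hairpin 4 (0.0506) and Bpgm without PCBP1 hairpin 1 (0.0515) or PCBP2 hairpin 4 (0.0654). Tpi1, Pgam1 and Pfkm each lost their call on leaving out any 1 of 4 or more libraries (0.0589 to 0.262).

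Whether a knockdown effect changed between the days was tested as an interaction. No gene of the 32 was called for PCBP1 (0.137% of all genes higher and 0.251% lower), with 7 at an unadjusted p under 0.05 by edgeR. Slc2a1 came nearest, with a change of -0.89 (SE 0.20, edgeR quasi-likelihood adjusted p = 0.0546). DESeq2 called it as the 1 gene (-0.90, adjusted p = 0.00288), and over 19 alternatives, 11 of which called it, its adjusted p ran from 2.35e-06 to 0.158 and its value from -1.09 to -0.67. Leaving out LUC-1 at Day 2 gave -0.71 (edgeR adjusted p = 0.0443). For PCBP2 none was called by edgeR (0% of all genes in either direction), 6 had an unadjusted p under 0.05, and DESeq2 called 2, Slc2a1 (-0.78, adjusted p = 0.0354) and Hk1 (-0.51, adjusted p = 0.0201).

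The choice between the exons of Pkm printed above moved both with the day and with the knockdowns. The share of exon 9 (transcript Pkm-202) in the TPM of Pkm-201 and Pkm-202 was 7.38%, 6.03% and 6.81% in the Day 0 controls, 20.9%, 15.3% and 18.3% with PCBP1 hairpins 1, 3 and 4, and 9.8%, 12.3% and 10.1% with the PCBP2 hairpins. At Day 2 it was 32.5%, 37.2% and 35.2% in the controls, 46.3%, 49% and 54% with the PCBP1 hairpins and 46.9%, 49.2% and 56.1% with the PCBP2 hairpins. On both days all 6 knockdown libraries lay above all 3 controls, and at Day 0 the PCBP1 libraries also lay above the PCBP2 libraries. The share rose by 33.3 percentage points between the days over all conditions (exact permutation p = 0.00025, adjusted p = 0.0005).

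PCBP1 knockdown differed from control by 11.4 percentage points at Day 0 and 14.8 at Day 2, each with an exact two-sided permutation p of 0.1, the smallest that 3 against 3 libraries can give. Over both days, permuting within the day, the difference was 13.1 points (exact permutation p = 0.005, the smallest possible; adjusted p = 0.02 over 8 shares). PCBP2 knockdown differed from control by 3.98 points at Day 0, 15.7 at Day 2 and 9.86 over both days (exact permutation p = 0.005, adjusted p = 0.04). The test over both days was added after the data were seen. It permutes the days separately although the same hairpins and control constructs were used on both. Its p is therefore too small if the libraries of a construct depend on each other, and within a day no p could go below 0.1. The 2 knockdowns differed by 7.43 points at Day 0 (exact permutation p = 0.1) and overlapped at Day 2 (0.936 points, p = 0.7).

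**Figure D5:**
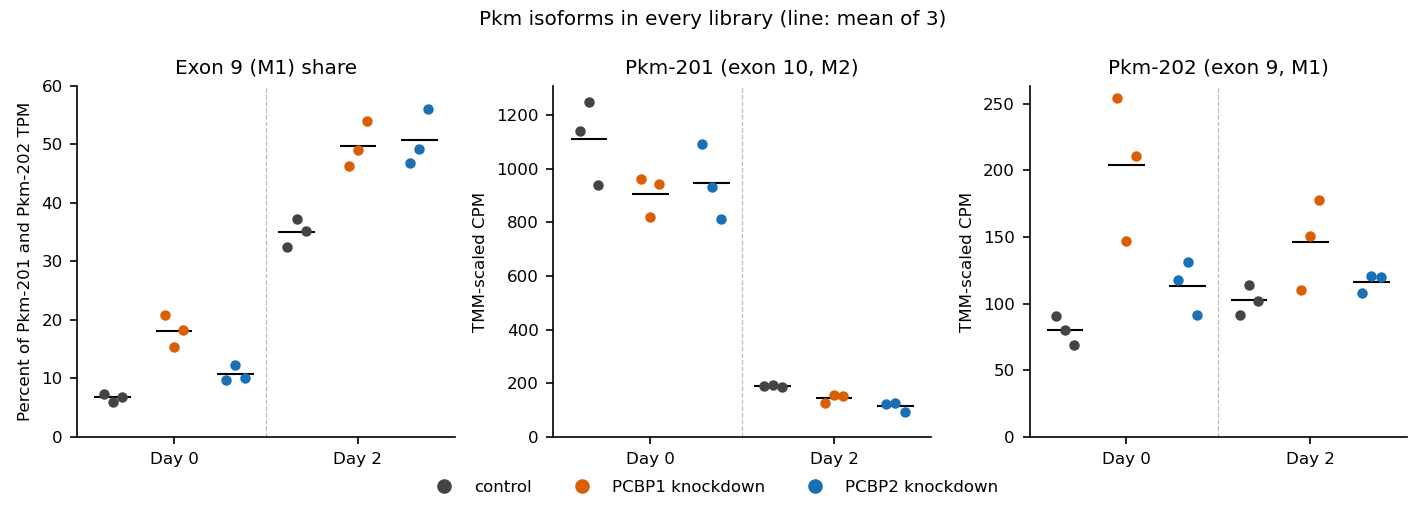
Left, exon 9 (M1) share of Pkm in percent of the TPM of both isoforms; middle and right, TMM-scaled CPM of Pkm-201 (exon 10, M2) and Pkm-202 (exon 9, M1), in each library by day and condition, with the mean of 3 as a line. The 9 Day 2 shares lie between 32.5% and 56.1%, all above the highest Day 0 share of 20.9%.

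The 2 isoforms of Pkm differed in how their own levels moved. Pkm-201, with exon 10, went from 1140, 1250 and 940 CPM in the Day 0 controls to 190, 192 and 187 CPM at Day 2. Pkm-202, with exon 9, was at 90.7, 80.4 and 68.7 CPM and then 91.4, 114 and 102 CPM. On the TMM scale the higher exon 9 share of the Day 2 controls thus went with a lower M2 isoform. The ranges of the M1 isoform nearly touched on that scale (90.7 and 91.4 CPM). Unlike the share, these levels depend on the scaling. With library totals the median log2 change of all genes between days in the controls was -1.68 instead of -0.05. No test was run on single isoforms. In the Day 0 PCBP1 knockdown, Pkm-202 was at 254, 147 and 211 CPM and Pkm-201 at 960, 818 and 941 CPM, while total Pkm was not called (log2 -0.10). In the Day 2 PCBP1 knockdown Pkm-202 was at 110, 151 and 178 CPM and Pkm-201 at 127, 157 and 152 CPM.

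Junction reads give a second view of the same libraries. Local splicing variations are the sets of junctions that leave or enter an exon, and the authors' deposited table gives the share of use of each junction per group, the authors' estimate of the change in use (not the plain difference of the shares) and the probability that this change is at least 20 percentage points. In the authors' deposited table for PCBP1 at Day 0, the junction from exon 9 into the next shared exon (exon 11) went from 6.6% in the pooled controls to 36.5% (change 29.5 points, probability 1). In the authors' deposited table the junction from exon 10 into exon 11 went from 93.1% to 62.3% at Day 0 with PCBP1 knockdown (change -30.4, probability 1). For PCBP2 at Day 0 the authors' deposited table gives 6.6% and 12.5% for exon 9 into exon 11 (change 3.8 points). At Day 2 the authors' deposited table gives 35.9% in controls, 60.7% with PCBP1 knockdown (change 24.9, probability 0.839) and 49% with PCBP2 knockdown (change 11.1, probability 0.0873) for that junction. For the junction from exon 10 into exon 11 at Day 2, the authors' deposited table gives 37.6% in controls, 19.4% with PCBP1 knockdown (change -17.8, probability 0.398) and 16.8% with PCBP2 knockdown (change -21.3, probability 0.624). None of these 4 changes at Day 2 reached a probability of 0.95.

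The junctions that leave exon 8 moved less. At Day 0 with PCBP1 knockdown, the authors' deposited table takes exon 8 to exon 9 from 2.1% to 10% (change 7.7 points, probability 1.38e-19). Exon 8 to exon 10 went from 97.7% to 89.7% in the authors' deposited table (change -7.2, probability 6.04e-20). Unlike the exon 11 view, this view gave almost no probability to a change of at least 20 points. The reason was not tested. At Day 2 the authors' deposited table puts exon 8 to exon 9 at 19.1% in controls. With PCBP1 knockdown it was 33.6% (probability 0.115) and with PCBP2 knockdown 29.1% (0.00197). Exon 8 to exon 10 was at 64.2%, 52.8% and 52.1% in the authors' deposited table. The same variation in the authors' deposited table gives a junction from exon 8 straight to exon 11 at 16.4% in the Day 2 controls, 12.4% with PCBP1 knockdown and 18.3% with PCBP2 knockdown, which leaves out both exons. Seen from exon 11, the authors' deposited table puts that skipping junction at 20.7%, 18.5% and 27%. The exon 9 shares above rest on the 2 named transcripts and do not count such molecules.

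Beyond Pkm few variations of these genes passed a probability of 0.95. In the authors' deposited tables, 1 of the 434 variations in 30 of the 32 genes passed, that of Pkm, with PCBP1 knockdown at Day 0 (0.0573% of all variations), 0 of 443 with PCBP2 at Day 0 (0.0115%), 0 of 369 with PCBP1 at Day 2 (0.191%) and 2 of 353 with PCBP2 at Day 2 (0.0718%). The 2 were in Slc2a1 and Pfkfb2. In the authors' deposited table the Slc2a1 junction from exon 1 to exon 2 of 1 annotated transcript (119108972 to 119116007 on chromosome 4) went from 61.2% to 25% of the use of that acceptor exon (change -36.1 points, probability 0.988). The Pfkfb2 junction in the authors' deposited table went from 11% to 50.4% (130717811 to 130718690 on chromosome 1, change 40.4 points, probability 0.995), and neither of its ends is an annotated exon end. Slc2a1 also had a transcript annotated for nonsense-mediated decay, Slc2a1-204, at 40.1% to 60.4% of its TPM in the 18 libraries. At Day 2 its share was 48.7%, 47.6% and 52.2% in the controls, 59.9%, 54.6% and 60.4% with the PCBP1 hairpins and 48.4%, 44.8% and 46.4% with the PCBP2 hairpins, so the PCBP1 libraries lay above all others.

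Among the other shares, that of Slc2a3 differed in the PCBP1 knockdown. Over both days the Slc2a3 share of glucose transport was 5.44 percentage points higher than in controls (exact permutation p = 0.005, adjusted p = 0.02), with 61.2%, 54.9% and 56% at Day 0 and 11.5%, 8.88% and 15.3% at Day 2, above all 3 controls on each day. Slc2a3 itself was not called (log2 -0.04 at Day 0 and 0.01 at Day 2). The Pklr share differed from control by -4.15 points over both days (exact permutation p = 0.02) and the Aldoc share by 0.328 points (exact permutation p = 0.025), each with an adjusted p of 0.05, which does not pass the threshold. At Day 2 the Pklr shares with the PCBP1 hairpins, 11%, 8.29% and 9.24%, overlapped those of the controls. These tests over both days have the limit given for the exon 9 share, as the same constructs were used on both days.

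The genes around the pathway were counted from lists, to be read against the 40.5% of all genes that rose and the 42.4% that fell in the controls. In the controls 3 of 5 further glucose transporters rose from Day 0 to Day 2 and 2 fell, led by Slc2a4 (GLUT4, log2 5.12), Slc2a5 (a fructose transporter, 3.73, SE 0.559, at or below 0.894 CPM in every library) and Slc2a8 (-2.52). Of 8 further isozymes of the pathway none rose and 6 fell. Of 9 pentose phosphate genes 3 rose and 6 fell, with transaldolase Taldo1 at 2.11. Of 13 glycogen and galactose genes 2 rose and 10 fell, with galactokinase Galk1 at -4.06. Of 11 genes of pyruvate dehydrogenase and pyruvate import 2 rose and 8 fell, with the pyruvate carrier Mpc2 at 2.74 and Pdha1 at -2.52. Of 10 shuttle genes, which carry the NADH electrons of glycolysis into mitochondria, 9 fell, with Got2 at -3.31. Of 6 relatives and partners of the lactate carriers 4 rose and 1 fell, with Bsg (basigin, the chaperone of MCT1 and MCT4) at 2.30. Of 21 genes of the hypoxia-inducible factor pathway 7 rose and 10 fell, with Egln1, an oxygen sensor of the pathway, at -4.70 and Mxi1 at 5.69.

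At Day 2 some of these lists held calls in both knockdowns. Bsg was lower in the PCBP1 knockdown (log2 -0.50). Taldo1 was lower in the PCBP1 knockdown (-0.38) and the PCBP2 knockdown (-0.51). Among 16 regulators of glycolysis, 4 were lower and 1 higher in the PCBP1 knockdown and 3 lower and 1 higher in the PCBP2 knockdown, where 7.61% and 3.75% of all genes were lower and 5.51% and 0.949% higher. They included Klf1, an erythroid transcription factor, at -0.97 and -0.86 and Gata1 at -0.41 and -0.44. Both knockdowns were compared with the same controls.

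Of 9 regulators of Pkm splicing 3 rose and 5 fell from Day 0 to Day 2 in the controls, near the shares of 40.5% and 42.4% over all genes. Ptbp1, which represses exon 9, fell by 2.18 log2 units, its paralog Ptbp3 rose by 2.30 and Hnrnpa1, another repressor of exon 9, fell by 1.23. In the PCBP1 knockdown Ptbp1 had log2 values of -0.10 at Day 0 (edgeR adjusted p = 0.836) and -0.01 at Day 2 (0.965), and Ptbp3 had 0.25 (0.367) and 0.30 (0.0593). Their part in the exon 9 share was not tested.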

How the data were processed

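Per the submitters' processing notes, reads were handled with FastQC 0.11.9, Trim Galore 1.46.0, STAR 2.5.3a, SAMtools 1.9 and Salmon 0.11.3 on GRCm38. The authors deposited an estimated count (expected count, from Salmon per these notes) and effective length per transcript for each of 18 libraries, and tables of junction use per splicing variation whose tool is not given in the sources used here. Of 111706 transcripts, 110403 matched GENCODE M21 (the rest held 0.275% to 0.579% of reads). Counts were summed per gene, rounded and fitted with edgeR 4.0.16 (R 4.3.3; TMM, expression filter, 6 group means, quasi-likelihood F tests, 12 residual degrees of freedom), with Benjamini-Hochberg adjustment over 17500 genes and 3 libraries a group. "Rose", "fell", "higher than" and "lower than control" are kept for calls at adjusted p under 0.05 and for shares past an exact permutation test. Family shares used count divided by effective length. Alternatives were DESeq2 1.42.0, library totals, globins left out, no filter, a GC trend, coding transcripts, single libraries left out and single-day fits. The code was tested on simulated data. All 32 genes are named by role, with every library shown for those called in a knockdown comparison, the largest changes between days and the leading isozymes; other lists give counts and up to 3 genes by p. The genes and lists were chosen with earlier results of these data known. One result of a neighbouring pathway is not reported here.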

Additional observations from a re-analysis of the deposited data

How the results depend on the processing

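Leaving out single libraries left 0 to 1 of the 32 genes called for PCBP1 knockdown at Day 0, 2 to 9 at Day 2 (2 without SCR-2 or PCBP1 hairpin 1 or 4), 2 to 8 for PCBP2 knockdown at Day 2 (2 without PCBP2 hairpin 4, 8 without LUC-1), 0 for PCBP2 against PCBP1 at Day 0, 6 to 12 at Day 2 (6 without PCBP2 hairpin 4), and 0 to 1 for the change of the PCBP1 effect. Fits on the 9 libraries of a day called 4 for PCBP1 at Day 0, 1 at Day 2, 0 for PCBP2 at Day 2, and 2 and 3 for PCBP2 against PCBP1 at Day 0 and Day 2. The common dispersion, a measure of the spread between replicates, was 0.00749 in the Day 0 fit and 0.0293 in the Day 2 fit. The main fit shared 0.0169 over both days, above the Day 0 value and below the Day 2 value. Of all genes, the single-day fits called 1074 for PCBP1 at Day 0, where the main fit called 8 higher and 146 lower. At Day 2 they called 899 for PCBP1 (main fit 964 higher and 1332 lower) and 30 for PCBP2 (166 higher and 656 lower). Without the filter on low counts, 2 were called for PCBP1 at Day 0, 2 for PCBP2 against PCBP1 at Day 0, 2 for the change of the PCBP1 effect and 1 for that of PCBP2. Library totals and the removal of a GC trend each gave 2 for PCBP2 at Day 2, and these and coding transcripts gave 0 for PCBP2 against PCBP1 at Day 0. The change of the PCBP1 effect had 1 call with DESeq2, library totals, globins left out, the GC trend removed or coding transcripts, and that of PCBP2 had 2 with DESeq2. The causes were not tested.

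Some Day 2 against Day 0 values of the controls changed sign. With library totals they were -0.126 for Slc2a3, -0.416 for Pfkfb4, -0.997 for Hk3, -1.612 for Slc16a1, -1.451 for Gapdh and -0.643 for Eno3, which is how that scaling moves all genes. With coding transcripts Ldhb had 0.296 and Aldoa 0.061, and without the filter Slc16a1 had -0.154 and Gapdh -0.008. With single libraries left out, Ldhb ran from -0.956 to 0.056 and Slc16a1 from -0.158 to 0.042. In percentage points, the Pklr share under PCBP2 knockdown over both days ran from -0.403 to 1.31, the Pfkp share under PCBP1 knockdown from -0.414 to 4.24 and the exon 9 share of PCBP2 against PCBP1 at Day 2 from -1.76 to 3.03. With coding transcripts the Aldoc share fell by 0.157 points between days (exact permutation p = 0.163). At a probability of 0.8, 1 splicing variation, in Pkm, passed for PCBP1 at Day 2.

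Libraries with the same construct on both days shared little deviation over all genes (correlations from -0.009 to 0.042), and 5 of 9 correlated best with their own construct. For libraries with the same hairpin number the correlations ran from -0.045 to 0.070. These values cannot tell whether such libraries were paired, and the labels do not say, so the main fit used no pairing. With the construct as a replicate block, 27 genes were called in the controls between days (8 rose and 19 fell), and with the hairpin number as a replicate block 12 were called (4 higher and 8 lower) for PCBP2 against PCBP1 at Day 2. Precision is limited by 3 libraries a group, and for Ldhb, Hk3, Eno2 and Slc2a5 by few reads.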
